A study of Rattus norvegicus with 40 samples.

Results

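Of 31715 transcripts quantified in 4 tissues of the rat, 118 were selected on their own values for an even level across liver, soleus muscle, fat and hippocampus. The rule took the mean level of each transcript over the 10 samples of a tissue in TPM, the length-adjusted unit that gives the estimated share of a transcript among all transcript molecules of a sample. It kept transcripts whose 4 tissue means all lay between 10 and 300 TPM and whose highest mean was at most 1.5 times the lowest. It allowed the 200 highest of these, but only 118 met it, so the limit of 200 was not reached and none was left out by rank. These 118 made up 4.45% of the 2653 transcripts with all 4 means in the range, and the other 2535 in the range are called uneven below.

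Sequenced were 40 samples from 12 male rats of the SHR/OlaIpcv background, an inbred line of the spontaneously hypertensive rat. In each tissue 5 were wild-type littermates and 5 were heterozygous for a small deletion in the first exon of Tti2 made with a zinc finger nuclease (Tti2+/-), all from 1 line, and the age of the sequenced rats is not in the labels. A rat gave at most 1 sample of a tissue, and 5 of the 12 rats gave all 4 tissues. The labels call the fat peritoneal and the methods perirenal.

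The RNA was poly(A)-selected, and the total estimated count per sample ran from 19176393 to 32713126 with a median of 24195968. Among the hippocampus samples, that of wild-type rat 2 stood most apart on the first 2 principal components, and its total was the highest of the 40. The transcripts carry Ensembl identifiers without gene names, so the tissue labels, the genotype labels and the level of Tti2 were not checked by named markers here, and no function is given for any transcript.

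A level that is alike in unlike tissues is commonly taken as the mark of a transcript for basic tasks of the cell, such as those of the ribosome, the proteasome or the respiratory chain, and such transcripts often serve as references for quantitative PCR. TPM gives only a share of the whole: in a tissue where a few transcripts take much of the RNA, less is left for every other one. Tti2 belongs to a co-chaperone complex needed for the maturation of mTOR, ATM and related kinases.

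The even transcripts covered the middle of the expression range. Their average over the 4 tissues had a median of 31.0 TPM and ran from 246.6 TPM for ENSRNOT00000050090.3 to 12.5 TPM for ENSRNOT00000071944.1. Of the 118, 92 averaged at least 20 TPM, 36 at least 50 TPM and 16 at least 100 TPM. Together they took 0.593% of all TPM in liver, 0.619% in muscle, 0.683% in fat and 0.669% in hippocampus.

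**Figure D1:**
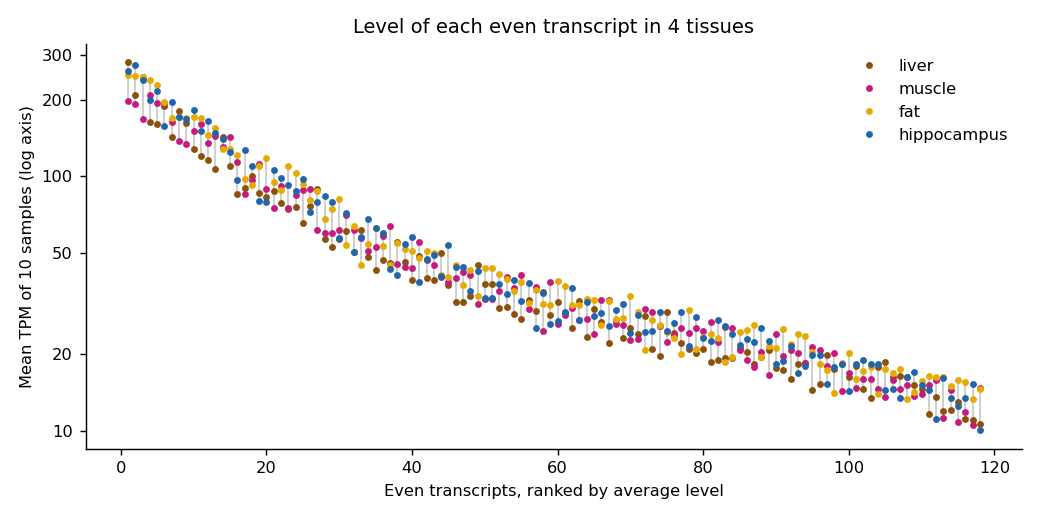
Each of the 118 even transcripts is one position on the x axis, ranked by its average, with its mean TPM of 10 samples in each tissue as 4 coloured points on a log axis and a grey line from lowest to highest. The means run from 280.4 TPM (liver, first transcript) down to 10.01 TPM (hippocampus, last transcript), and each grey line spans at most 1.49-fold.

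The ratio of highest to lowest tissue mean, which the rule used, had a median of 1.38, with 9 transcripts at 1.2 or less and 63 at 1.4 or less. Fat held the highest mean of 45 transcripts and hippocampus of 37, against 21 for muscle and 15 for liver. Liver held the lowest mean of 52, muscle of 34, hippocampus of 19 and fat of 13.

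The transcript with the smallest ratio was ENSRNOT00000082066.1, 1890 bases long, with means of 142.2 TPM in liver, 130.1 in muscle, 128.3 in fat and 139.6 in hippocampus, a ratio of 1.11. In wild-type liver its samples were at 134.5, 136.8, 141.8, 143.8 and 150.9 TPM, and in Tti2+/- liver at 131.0, 139.6, 143.9, 146.8 and 152.2 TPM. In wild-type hippocampus they were at 135.2, 137.9, 138.0, 140.2 and 153.3 TPM, and in Tti2+/- hippocampus at 132.1, 135.1, 140.1, 140.4 and 143.4 TPM. These 4 groups overlapped, and over all 40 samples the transcript stayed between 118.7 and 153.3 TPM, a 1.29-fold span that was the smallest of the 118.

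At the ratio limit and the lower limit of the rule the values on either side were close together, and at the upper limit they were further apart. ENSRNOT00000073157.1 was the last inside the ratio limit, at 1.49, with 52.8 TPM in liver and 78.9 TPM in hippocampus. ENSRNOT00000023811.5 was the first outside it, at 1.51, with 87.3 TPM in liver and 132.1 TPM in muscle. At the lower limit ENSRNOT00000071944.1 was kept with 10.01 TPM in hippocampus, while ENSRNOT00000075242.2 was left out with 9.80 TPM in liver although its ratio was 1.07. At the upper limit ENSRNOT00000050090.3 was kept with 280.4 TPM in liver, and ENSRNOT00000030221.6 was left out with 355.9 TPM in fat.

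The even transcripts were shorter than others, a property that the rule did not use directly. Their median length was 1212.5 bases, against 1639 bases for the uneven transcripts in the same range and 1672 bases for all transcripts, and 14 of the 118 (11.9%) were shorter than 500 bases, against 7.26% of the uneven ones. Short transcripts gather few reads per TPM: the mean estimated count of the even transcripts ran from 24.3 to 10084 with a median of 694.0. The effective length that enters TPM was fitted per sample. With 1 mean effective length per transcript over all samples, a choice made after seeing the data, 105 of the 118 still met the rule.

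Even TPM did not mean an even level on scales that are set by the typical transcript. Over the 15693 transcripts tested in all tissues, the median log2 ratio of TPM over hippocampus was -1.37 in liver and -1.50 in muscle. The medians of the even transcripts were -0.17 and -0.09, so their ratios stood above that of the typical transcript. The 100 highest transcripts took 59.9% of all TPM in liver and 67.5% in muscle, against 41.8% in fat and 38.9% in hippocampus. In bulk tissue a change in the share of a cell type and a change in RNA per cell cannot be told apart.

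When the levels were rescaled with trimmed mean of M-values (TMM) factors over the 40 samples, which set the typical transcript equal between samples, none of the 118 met the rule. This outcome followed from the choice by TPM. A factor is common to all transcripts of a sample, and the shift between tissues was too large for transcripts even by TPM to stay within 1.5-fold. The order of the tissues below follows from the same factors. The ratio of highest to lowest tissue then had a median of 2.70 and ran from 1.91 to 4.08. Muscle held the highest mean of 95 transcripts and liver of 23, and hippocampus the lowest of 94 and fat of 24, so the highest mean was in muscle or liver for all 118. The median even transcript was at 1.14 in liver and 1.37 in muscle over hippocampus (log2), with the median of all tested transcripts at -0.07 and -0.04. On that scale 384 other transcripts met the same rule.

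Median-of-ratios size factors gave the same picture for the same reason, with 0 of 118 kept and a median ratio of 2.59. The highest mean was in muscle for 85 and in liver for 33. ENSRNOT00000082066.1, the most even by TPM, had a ratio of 2.58 on the TMM scale. Evenness across tissues thus held for shares of all transcripts and not on these other scales. The comparisons between rats and genotypes below were made within a tissue.

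**Figure D2:**
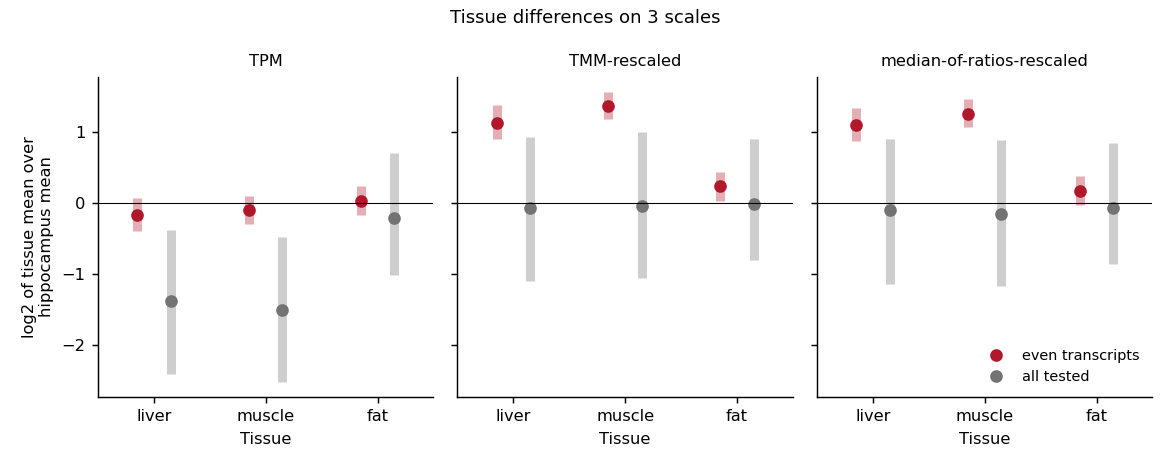
Points are medians and bars the range from lower to upper quartile of the log2 ratio of a tissue mean over the hippocampus mean, for the 118 even transcripts (red) and all 15693 tested transcripts (grey), on TPM and on 2 rescaled versions. On TPM the red points lie near 0 and the grey ones at -1.37 and -1.50 for liver and muscle, and after rescaling the grey points lie near 0 and the red ones above 1.

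Whether the evenness held in rats that had no part in the selection was asked by applying the rule to 1 genotype and reading the other, which comes from different animals. In the 20 wild-type samples the rule chose 120 transcripts, 106 of them among the 118. In the 20 Tti2+/- samples 87 of these 120 (72.5%) were again at most 1.5-fold apart and 117 at most 2-fold apart, with a median ratio of 1.41 against 1.38 in the rats that chose them. The widest was ENSRNOT00000081839.1 at 4.92, a transcript of 141 bases with an estimated count of at most 10 in any sample, and the next was at 2.61.

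In the opposite direction 105 transcripts were chosen in Tti2+/- rats, and 87 of them (82.9%) stayed within 1.5-fold in wild-type rats, all 105 within 2-fold, with 1.80 the widest. The transcripts that left the limit thus mostly stayed within 2-fold. Within single rats that gave all 4 tissues, whose samples the rule had used, 76 to 83 of the 118 were within 1.5-fold and 110 to 114 within 2-fold across the 4 samples.

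Between rats of one genotype and tissue the even transcripts varied little, and no less than other transcripts at these levels in 3 of the 4 tissues. The coefficient of variation (CV, the SD over the mean of TPM, averaged over both genotypes, each n = 5) had a median over the 118 of 6.79% in liver, 6.61% in muscle, 6.70% in fat and 7.18% in hippocampus. The uneven transcripts in the same range had medians of 6.62%, 7.09%, 6.15% and 6.35%, and all tested transcripts of 14.97%, 17.7%, 14.4% and 14.6%. The even transcripts were lower than the uneven ones in muscle alone, by less than 1 percentage point. Without wild-type rat 2 the hippocampus medians were 6.28% for the even and 4.95% for the uneven transcripts.

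**Figure D3:**
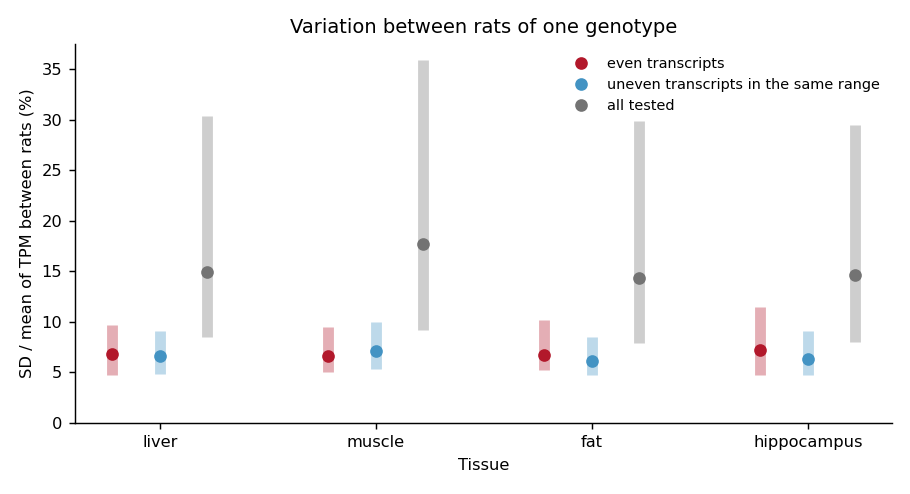
Points are medians and bars the range from lower to upper quartile of the CV of TPM between rats of 1 genotype, for the 118 even transcripts (red), the 2535 uneven transcripts in the same range (blue) and all tested transcripts (grey) in each tissue. Red and blue medians lie between 6.15% and 7.18% and grey ones between 14.4% and 17.7%.

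In all 4 tissues together 71 of the 118 (60.2%) kept a CV under 10%, against 59.5% of the uneven transcripts, and 16 (13.6%) reached 20% in some tissue, against 9.78% of the uneven ones. A transcript that varied in 1 tissue tended to vary in the others: the rank correlation of the CVs across the 118 was between 0.66 and 0.74 for the 6 pairs of tissues, which share rats and transcript lengths. Depth moved with the CV. The 14 transcripts with a mean estimated count under 200 had a median CV of 17.7% and the 47 with 1000 or more one of 5.26%. Each CV was also divided by what counting error alone gives at the transcript's mean count, and these quotients had a median of 1.85. The CV was hardly related to the tissue ratio, with a rank correlation of -0.14.

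The steadiest transcript was ENSRNOT00000027272.5, 1541 bases long, with a mean CV of 3.25%. Its wild-type liver samples were at 60.8, 61.3, 62.3, 62.5 and 65.2 TPM and its Tti2+/- liver samples at 59.6, 60.5, 60.6, 61.8 and 62.4 TPM. Its wild-type fat samples were at 43.6, 44.5, 44.7, 46.96 and 47.9 TPM and its Tti2+/- fat samples at 43.4, 43.5, 43.9, 45.2 and 45.7 TPM. The genotypes overlapped in both tissues, while every fat sample was below every liver sample. Along with it, 7 other even transcripts had a CV under 5% in each of the 4 tissues.

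The least steady were ENSRNOT00000051449.4 and ENSRNOT00000040481.5, both 360 bases long. They hold the same estimated count and the same TPM in each of the 40 samples, so they are not 2 independent measurements. They leave 117 distinct profiles among the 118. Their tissue means were 37.6 TPM in liver, 33.05 in muscle, 43.5 in fat and 33.1 in hippocampus, a ratio of 1.32, but their mean CV was 83.8%.

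In wild-type liver the samples of this pair were at 0.0068, 20.6, 34.4, 38.0 and 64.6 TPM, and in Tti2+/- liver at 13.5, 24.99, 48.6, 55.7 and 75.5 TPM. In wild-type fat they were at 2.91, 4.53, 29.2, 83.4 and 97.05 TPM, and in Tti2+/- fat at 0.37, 3.59, 39.97, 55.5 and 118.1 TPM. The spread within each group was larger than any difference between tissue means. Estimated counts for the pair ran from 0.026 to 399.2, and reads that fit several near-identical transcripts are shared out by the quantifier, so levels of a single member are uncertain.

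**Figure D4:**
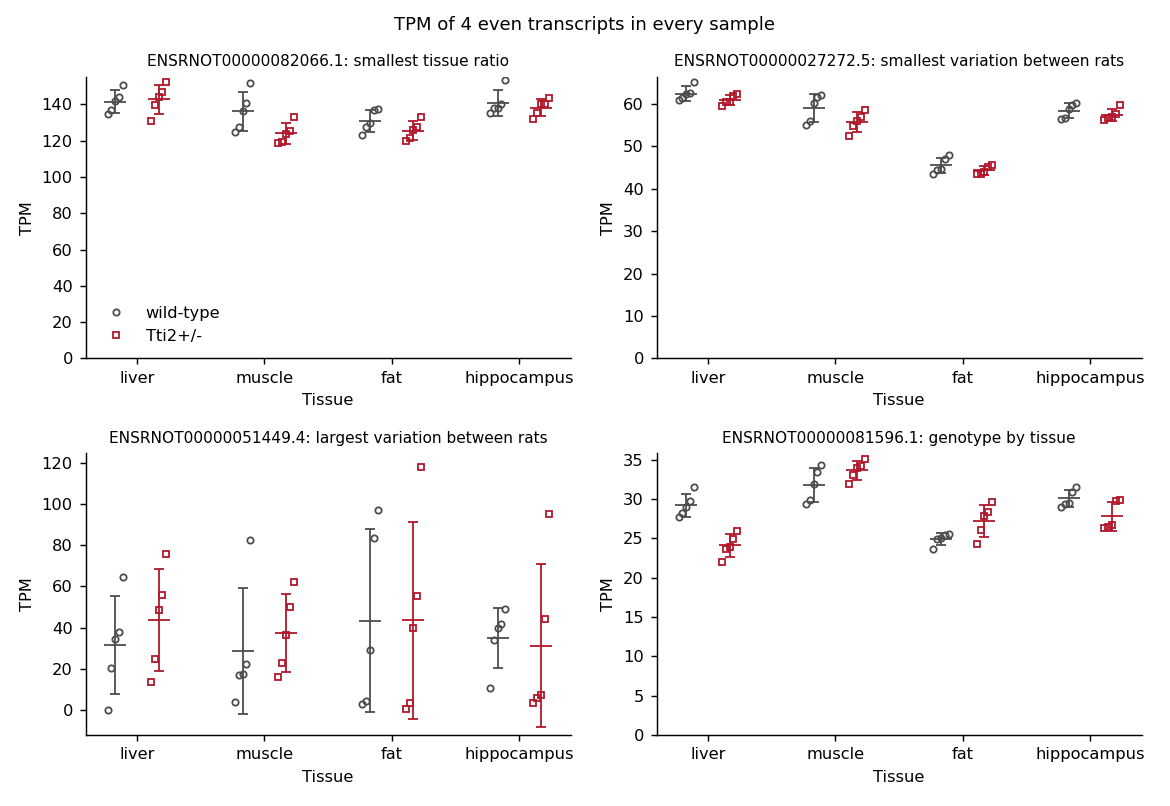
TPM of 4 even transcripts in every sample, with wild-type as grey circles and Tti2+/- as red squares, bars showing mean and SD of 5 samples. ENSRNOT00000082066.1 stays between 118.7 and 153.3 TPM and ENSRNOT00000027272.5 between 43.4 and 65.2 TPM, ENSRNOT00000051449.4 runs from 0.0068 to 118.1 TPM, and ENSRNOT00000081596.1 has its genotypes apart in liver only.

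Apart from this pair, 3 transcripts spanned more than 5-fold over the 40 samples, and 90 of the 118 stayed within 2-fold and 10 within 1.5-fold. The 3 are named after their values were seen. ENSRNOT00000092425.1, 697 bases long, had a mean CV of 38.7% and fell to 0.025 TPM in 1 Tti2+/- hippocampus sample, the other 4 being at 9.02, 10.9, 17.1 and 23.6 TPM. ENSRNOT00000014788.7 ran from 4.48 to 36.9 TPM, with a CV of 8.94% in liver and 60.2% in fat.

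ENSRNOT00000002522.4, 3389 bases long with estimated counts of 309 to 2965, varied by rat in a way that liver and fat shared. In liver, wild-type rats 4 and 5 were at 29.7 and 30.0 TPM and Tti2+/- rats 1 and 4 at 25.005 and 22.97 TPM, and the other 6 rats were between 3.81 and 13.7 TPM. In fat the same 4 rats were at 29.0, 31.1, 19.3 and 26.7 TPM. The other fat samples were between 9.14 and 13.1 TPM, apart from Tti2+/- rat 3 at 21.7 TPM, which gave no liver sample. Muscle followed only in part. Wild-type rats 4 and 5 were at 24.1 and 22.9 TPM in muscle, and Tti2+/- rat 4 was at 17.1 TPM. The highest muscle values were in wild-type rat 6 at 36.9 TPM and in Tti2+/- rat 6 at 25.6 TPM. The liver of wild-type rat 6 was the lowest of the wild-type livers at 4.62 TPM. In hippocampus the 9 samples other than wild-type rat 1 (27.1 TPM) lay between 15.3 and 21.9 TPM. Both genotypes held high and low rats.

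In the hippocampus sample that stood apart, 2 even transcripts were more than 1.5-fold from the mean of the other 9, both named after their values were seen. ENSRNOT00000012363.4 was at 216.3 TPM in this sample of wild-type rat 2 and between 77.7 and 90.6 TPM in the other 9. ENSRNOT00000067883.2 was at 37.5 TPM in it and between 53.5 and 63.4 TPM in the others. Without that sample 116 of the 118 still met the rule. The summed TPM of the 118 was 6724 ± 23.0 (SD, n = 5) in wild-type hippocampus and 6661 ± 44.0 (SD, n = 5) in Tti2+/- hippocampus, with wild-type rat 2 included.

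The genotype comparison asked whether heterozygous loss of Tti2 goes with a shift of transcripts that the tissues hold at one share. The rule had used means over both genotypes and not their difference. All 118 passed the filter on low counts in each tissue, and each tissue was fitted over all its transcripts with edgeR's quasi-likelihood test, and a call required a 1.5-fold difference together with an adjusted p (Benjamini-Hochberg) below 0.1. No separate breeding groups are stated, so p-values measure the spread between these rats.

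No even transcript was called in any tissue. The share called among all tested transcripts was 0.206% in liver, 0.00552% in muscle, 0% in fat and 0.00483% in hippocampus, so the zeros were at the level of the whole table. The smallest adjusted p of the 118 by edgeR was 0.157 in liver, 0.523 in muscle, 0.684 in fat and 0.939 in hippocampus.

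At an unadjusted p under 0.05, edgeR held 13 of the 118 in liver (11.0%, beside 10.1% of all tested), 8 higher and 5 lower in Tti2+/-. In muscle it held 5 (4.24%, beside 6.84%), all lower, and in fat 8 (6.78%, beside 6.96%), 1 higher and 7 lower. In hippocampus it held 3 (2.54%, beside 4.22%), 2 higher and 1 lower. In each tissue the share was near that of all transcripts or below it.

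The differences were small. The median absolute log2 fold change of the 118 was 0.07 in liver, 0.05 in muscle, 0.06 in fat and 0.04 in hippocampus, against 0.12, 0.13, 0.10 and 0.10 for all tested transcripts and 0.06, 0.06, 0.05 and 0.04 for the uneven ones in the same range. A fold change of 1.2 or more was reached by 5 of the 118 in liver, 4 in muscle, 6 in fat and 3 in hippocampus (2.54% to 5.08%), against 21.6% to 27.2% of all tested transcripts. A fold of 1.5 or more was reached by 2, both in fat and neither called: ENSRNOT00000014788.7 at 0.72 ± 0.49 (log2, SE) and ENSRNOT00000092425.1 at 0.64 ± 0.30 (log2, SE), which were among the least steady transcripts. In Tti2+/- rats ENSRNOT00000092425.1 averaged 9.38 TPM in muscle, under the rule's floor, and 19.4 TPM in fat. It met the rule only together with the wild-type samples, so its difference is not independent of the selection.

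The sign of the differences depended on the scale. In Tti2+/- the fitted log2 fold change was above 0 for 60.2% of the 118 in liver and 57.6% in muscle, and for 32.2% in fat and 37.3% in hippocampus, with 49.0% to 50.2% for all tested transcripts. The medians were 0.01, 0.01, -0.03 and -0.02. On TPM the mean was higher in Tti2+/- for 42.4% of the 118 in liver and 32.2% in muscle, so the lean turned there, and for 44.9% in fat and 39.0% in hippocampus, beside 40.1%, 38.8%, 56.2% and 51.9% of all tested. The summed TPM of the 118 was 5970 ± 67.4 in wild-type and 5897 ± 68.4 in Tti2+/- liver, 6292 ± 119.3 and 6088 ± 147.8 in muscle, and 6846 ± 241.2 and 6818 ± 206.3 in fat (SD, n = 5 each), with ranges that overlapped in each. Transcripts of one sample share its scaling, so these shares carry no test.

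**Figure D5:**
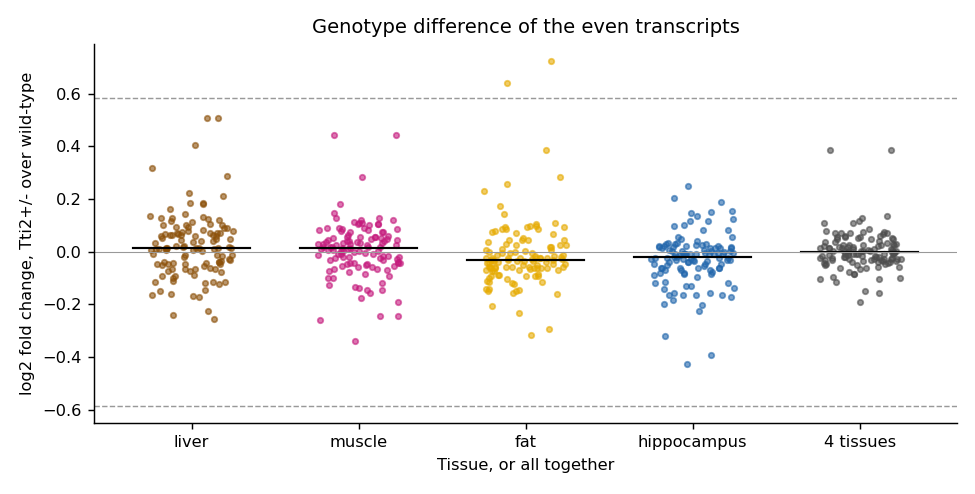
Each point is the log2 fold change of 1 of the 118 even transcripts in Tti2+/- over wild-type rats, from edgeR in each tissue and from limma-voom over the 4 tissues, spread sideways for sight. Black bars are medians and dashed lines mark a 1.5-fold change, which 2 points in fat exceed, neither of them called.

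Genotypes that did not overlap at all, every Tti2+/- sample above or below every wild-type sample in TMM-scaled counts, occurred for 4 of the 118 in liver (beside 2.56% of all tested), 1 in muscle (beside 1.3%), 0 in fat (beside 1.32%) and 1 in hippocampus (beside 1.18%). In liver ENSRNOT00000021433.5 and ENSRNOT00000021445.5 were higher in Tti2+/- and ENSRNOT00000081596.1 and ENSRNOT00000072152.2 lower. Of these, ENSRNOT00000021445.5 and ENSRNOT00000072152.2 are named after their values were seen.

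ENSRNOT00000020284.6 was the one in muscle. Its wild-type muscle samples were at 153.3, 154.9, 156.4, 157.8 and 160.9 TPM and its Tti2+/- samples at 119.9, 121.7, 129.0, 131.1 and 141.1 TPM. The log2 fold change was -0.24 ± 0.06 (SE), with an adjusted p of 0.523 by edgeR. In fat the same transcript was at 128.1 ± 4.43 TPM in wild-type and 128.7 ± 6.21 TPM in Tti2+/- rats (SD, n = 5 each), where the groups overlapped.

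ENSRNOT00000071944.1, the last by average level, was the one in hippocampus. Its wild-type samples were at 8.34, 9.16, 9.31, 9.58 and 9.95 TPM and its Tti2+/- samples at 10.3, 10.3, 10.6, 11.0 and 11.6 TPM. Its hippocampus mean was 9.27 TPM in wild-type and 10.76 TPM in Tti2+/- rats, so it passed the rule's floor of 10 TPM only through the Tti2+/- samples, and its difference of 0.21 ± 0.07 (log2, SE, adjusted p of 0.939 by edgeR) is not independent of the selection.

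DESeq2 with no fold limit, an alternative added after seeing the data, placed 5 of the 118 under an adjusted p of 0.1 in liver (4 higher, 1 lower, beside 2.86% of all tested), 1 in muscle (lower, beside 0.502%), 0 in fat (beside 0.351%) and 0 in hippocampus (beside 0.13%). In liver ENSRNOT00000081596.1 was at -0.24 (log2) with an adjusted p of 0.0091 by DESeq2, and ENSRNOT00000021433.5 was at 0.22 with 0.0697. ENSRNOT00000071482.2, at 0.40 with 0.0702, ENSRNOT00000092172.1, at 0.18 with 0.0811, and ENSRNOT00000021445.5, at 0.16 with 0.0855, made up the rest. In muscle it was ENSRNOT00000020284.6, at -0.25 with an adjusted p of 0.0318 by DESeq2. All 6 stayed under 1.5-fold, so none was called.

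Over the 4 tissues together, limma-voom with tissue as a term and the rat as a random block called 0 of the 118 at an adjusted p under 0.1, beside 1.46% of the 15693 tested. It held 7 at an unadjusted p under 0.05 (5.93%, beside 12.7%), 2 higher and 5 lower in Tti2+/-. edgeR with tissue and genotype as terms likewise called 0 (beside 0.618%) and held 7 at an unadjusted p under 0.05 (beside 11.1%). The even transcripts were below this background, which holds transcripts of all levels. In the limma-voom fit their median absolute log2 fold change was 0.033, against 0.055 for all tested transcripts and 0.029 for the uneven ones in the same range. A small difference was thus not particular to the even transcripts.

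The intervals show how large a genotype difference, averaged over the tissues, the data allow. They do not bound the difference within a single tissue. ENSRNOT00000081596.1 had an interval from -0.11 to 0.05 on the log2 scale in the limma-voom fit. Its log2 fold change in liver alone was -0.24 by edgeR. In the limma-voom fit the 95% interval of the fold change lay within 1.1-fold either way for 77 of the 118, within 1.2-fold for 105 and within 1.5-fold for 115. This fit made more false calls than its limit on simulated data, so its intervals may be too narrow. The 3 with wider intervals were the pair of identical values, at 0.39 with an interval from -0.94 to 1.72 on the log2 scale, and ENSRNOT00000092425.1, at -0.16 with an interval from -0.79 to 0.47. Those 3 were also the only ones with a CV of 20% or more in each tissue.

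The even transcripts with the smallest p in that fit differed by at most 0.11 on the log2 scale, averaged over the tissues. The lower ones were ENSRNOT00000020284.6, at -0.10 ± 0.03 (log2, SE) with an adjusted p of 0.160 by limma-voom, and ENSRNOT00000026439.5, at -0.07 ± 0.02 with 0.197. The higher ones were ENSRNOT00000021158.7, at 0.11 ± 0.04 with 0.288, and ENSRNOT00000021433.5, at 0.09 ± 0.04 with 0.318. None passed. ENSRNOT00000020284.6 came under the limit without wild-type rat 6, with an adjusted p of 0.0867, and apart from muscle its means differed most in liver, at 114.6 ± 10.3 TPM in wild-type and 104.0 ± 6.34 TPM in Tti2+/- rats (SD, n = 5 each), where the groups overlapped.

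ENSRNOT00000021433.5, 768 bases long, differed mainly in liver. Its wild-type liver samples were at 28.1, 29.5, 29.9, 30.6 and 31.3 TPM and its Tti2+/- liver samples at 33.1, 33.5, 33.7, 34.8 and 34.97 TPM, with no overlap, a log2 fold change of 0.22 ± 0.06 (SE) and an adjusted p of 0.186 by edgeR. In hippocampus its means were 27.3 ± 4.43 and 26.5 ± 1.95 TPM (SD, n = 5 each), where the groups overlapped. ENSRNOT00000026439.5 was a little lower in Tti2+/- in each tissue, with means of 33.5 and 31.6 TPM in liver, 30.8 and 29.5 in muscle, 33.1 and 30.4 in fat and 38.8 and 37.2 in hippocampus.

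A genotype difference that changed with the tissue was found for 1 of the 118, ENSRNOT00000081596.1, at an adjusted p of 0.0685 by limma-voom, beside 0.249% of all tested called. At an unadjusted p under 0.05 there were 9 of the 118 (7.63%, beside 8.55%). Its samples in wild-type liver were at 27.8, 28.3, 29.0, 29.7 and 31.5 TPM, and those in Tti2+/- liver at 21.95, 23.7, 23.95, 24.96 and 25.9 TPM, all 5 below the lowest wild-type sample.

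In fat its wild-type samples were at 23.7, 24.9, 25.1, 25.4 and 25.5 TPM and its Tti2+/- samples at 24.3, 26.1, 27.8, 28.4 and 29.6 TPM, with 4 of 5 above every wild-type sample. In muscle the means were 31.8 ± 2.19 and 33.7 ± 1.22 TPM (SD, n = 5 each), and in hippocampus 30.1 ± 1.099 and 27.8 ± 1.85 TPM, with overlap in both. The edgeR log2 fold changes were -0.24 ± 0.06 (SE) in liver, 0.12 ± 0.07 in muscle, 0.10 ± 0.06 in fat and -0.12 ± 0.06 in hippocampus, and averaged over the tissues -0.03 ± 0.04 by limma-voom.

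The call of ENSRNOT00000081596.1 rested on several rats. With edgeR its adjusted p was 0.0997. With each rat left out in turn the adjusted p by limma-voom ran from 0.0323 to 0.250, and the call held in 4 of the 12 cases, without wild-type rat 3, wild-type rat 4, Tti2+/- rat 1 or Tti2+/- rat 3. With any of the other 8 rats left out it was lost, the highest adjusted p being that without Tti2+/- rat 2.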

How the data were processed

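RNA-seq of 40 samples was analysed, 5 per tissue and genotype. The authors quantified reads with kallisto against Ensembl rat transcripts, version 0.46.0 in the labels, with sequence bias correction, and deposited for each sample estimated counts and TPM per transcript. Members, comparisons and named transcripts were chosen with earlier results of these data known. The tissue rule used the deposited TPM. Named are the members with the lowest and highest tissue ratio, average and CV, those at the limits, the 2 with the smallest p in each direction over the 4 tissues, and any member called.

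Estimated counts were rounded, and transcripts with at least 5 counts in at least 47% of the samples were tested with edgeR 4.0.16 (quasi-likelihood, TMM) per tissue, and with limma-voom (limma 3.58.1) over the 4 tissues with the rat as block (estimated correlation 0.0103), the terms being tissue and genotype or their interaction. DESeq2 1.42.0 was an alternative. Calls needed an adjusted p under 0.1, and per tissue a fold of 1.5. The SE of an edgeR fold change was derived as its absolute log2 value over the square root of the test's F statistic, so it is approximate. Rescaled levels are estimated counts over effective length and scaled library size. The edgeR fits per tissue, both fits over the 4 tissues and the limma-voom interaction fit were tested on simulated data. DESeq2 and the edgeR interaction fit were not. The simulated samples held no effect shared by samples of a rat. Over the 4 tissues limma-voom made more false calls than its limit and edgeR did not, so both counts are given. CVs and intervals cover these rats only.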

Additional observations from a re-analysis of the deposited data

Results flagged for a closer look

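Of 128 groups of 5 samples examined (14 even transcripts, the summed TPM of the 118 and the total estimated count, each in 8 groups), 5 held a sample far from the other 4 by Dixon's criterion, and chance flags about 1 in 20 groups. One of the 5 restates a choice: ENSRNOT00000012363.4 was picked after its values were seen, as the even transcript farthest off in the hippocampus of wild-type rat 2. ENSRNOT00000092425.1 and ENSRNOT00000002522.4, also among the 14, were picked for their high CV, so the chance rate is a rough guide. ENSRNOT00000012363.4 was at 216.3 TPM in that sample, the other 4 wild-type samples being between 82.5 and 90.0 TPM. In the same sample ENSRNOT00000082066.1 was at 153.3 TPM, the others being between 135.2 and 140.2 TPM. ENSRNOT00000051449.4, the transcript with an identical double, was at 82.3 TPM in the muscle of wild-type rat 5, the others being between 4.06 and 22.1 TPM. ENSRNOT00000021158.7 was at 17.5 TPM in that same muscle sample, the others being between 19.98 and 20.98 TPM, and at 32.0 TPM in the hippocampus of Tti2+/- rat 1, the others being between 23.8 and 25.9 TPM.

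ENSRNOT00000081596.1 had a genotype difference that differed between tissues, at an adjusted p of 0.0685 by limma-voom, with Tti2+/- lower in liver and hippocampus and higher in muscle and fat. No cause was tested for any of these.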

How the results depend on the processing

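The evenness rested on the scale: 0 of the 118 met the rule on TMM-rescaled and 0 on median-of-ratios-rescaled levels. Both counts followed from the choice by TPM, since a rescaling factor is common to all transcripts of a sample. At a stricter planned ratio limit 17 remained, and at a limit of 2-fold 53 did, because the 200 highest were then taken from 436. The other alternatives, such as medians and leaving out each rat (111 to 117 kept), stayed within 1.5 times of 118. The share that stayed even in other rats was 72.5%, and 82.9% when chosen in Tti2+/- rats. On the TMM scale it was 84.5% of 200 transcripts chosen anew on that scale, a different set that says nothing about the 118.

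No even transcript was called within a tissue under 49 of 50 alternatives, leave-one-out included (0 to 0), and DESeq2 with no fold limit gave 6. Over the 4 tissues leave-one-out gave 0 to 1, and the rat number of the labels as replicate block gave 1. Same-numbered rats are different animals, and the correlation of their deviations was between -0.23 and 0.12. This cannot show whether same-numbered rats are related, since even samples of 1 rat had an estimated correlation of only 0.0103. For genotype by tissue leave-one-out gave 0 to 1. The median CV averaged over tissues was 6.82% (6.60% to 6.90% leave-one-out) and 5.51% for members with a mean count of at least 500, a choice made after seeing the data. Depth limits the short transcripts most.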
